A study of Homo sapiens with 8 samples.

Results

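The ephrin and semaphorin guidance genes encode cell surface receptors and ligands that tell neighbouring cells and growing axons to attract, repel or sort apart. The group was chosen by symbol and comprised the Eph receptors, the ephrins, the semaphorins of classes 3 to 7, the plexins and both neuropilins. It counted 52 of the 19775 genes that the arrays measured with probe sets of 1 gene symbol. There were 9 EphA and 4 EphB receptors, 5 ephrin-A and 3 ephrin-B ligands, 7 secreted class 3 semaphorins, 13 membrane semaphorins, 9 plexins and 2 neuropilins.

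Eph receptors are receptor tyrosine kinases that bind ephrins on an adjacent cell, and the signal can run into both cells at once. Semaphorins act through plexins, which switch small GTPases and the cytoskeleton, and most class 3 semaphorins need a neuropilin as co-receptor. In epithelia, Eph and ephrin contacts help to keep cell layers separate, and in carcinoma cells both systems have been linked to movement and to the response to neighbouring cells.

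Transcript levels were measured on 8 Affymetrix arrays of prostate cancer cells. PC3-Epi (1 array) is an epithelial population picked from luciferase-expressing PC3 cells, a human line from a bone metastasis of prostate cancer. PC3-EMT1, PC3-EMT12 and PC3-EMT14 (EMT, 3 arrays) are mesenchymal populations isolated from PC3-Epi after co-culture with human macrophages. PC3-EMT1 and PC3-EMT14 were also transduced with lentivirus carrying a scrambled control (Scr, 2 arrays) or 1 shRNA against the repressor ZEB1 (sh4, 2 arrays), so all transduced arrays carry vector. All cells descend from 1 parent line and grew in RPMI with serum, each line is 1 isolated population, and the labels describe no separate cultures of a line. The p-values therefore rest on how far these lines and arrays vary, part of which may be technical. In bulk RNA, fewer expressing cells and less transcript per cell cannot be told apart.

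The untransduced and the transduced arrays were on different scales, with medians of 4.33 to 4.35 and of 6.19 to 6.23 on the log2 scale, so values were compared only within a set. The highest of 27 bacterial control probe sets, for which the cells have no transcript, reached 4.56 on the untransduced and 6.00 on the transduced arrays, and values near these marks lie close to background. ZEB1, the targeted gene, stood at 3.08 in PC3-Epi and at 6.81, 7.12 and 6.50 in the EMT lines (PC3-EMT1, PC3-EMT12 and PC3-EMT14, an order kept for all values of these lines). It stood at 9.87 with Scr and 9.12 with sh4 in PC3-EMT1, and at 10.08 and 9.01 in PC3-EMT14, a fall of 0.91 ± 0.15 (SE, adjusted p = 0.0422), so the transcript remained well above the background mark with sh4. These are RNA values, and by immunoblot the paper on these cells reports a strong decline in ZEB1 protein with this shRNA. The epithelial adhesion genes CDH1 and EPCAM were lower in EMT by 7.74 and 3.35 and higher with sh4 by 3.94 and 1.97. CDH1 lay below the background mark on the 3 EMT and both Scr arrays, and it stood 6.74 above that mark in PC3-Epi and 3.69 above it with sh4 (mean of 2 arrays). By contrast, VIM, the mesenchymal filament protein vimentin, rose by 1.91 in EMT and differed by -0.33 ± 0.14 with sh4 (adjusted p = 0.268). All 6 epithelial markers read were lower in EMT, and 5 of 6 mesenchymal ones were higher, with FN1 at -0.37 ± 0.66. With sh4 the other epithelial markers differed by 3.81 (ESRP1), 0.86 (ST14), 0.28 (RAB25) and 0.24 (GRHL2, below the filter). The other mesenchymal ones differed by -1.99 (SPARC), -0.97 (FN1), -0.69 (FBN1) and 0.46 (CDH2). Of 13 macrophage markers measured, 0 exceeded the bacterial controls on any untransduced array, and their summed linear level was 150 in PC3-Epi and 147 to 161 in EMT. On all 4 transduced arrays CSF1R and AIF1 exceeded the mark, and ITGAM did on 3. The summed level of the 13 was 596 to 615.3 with Scr and 590.3 to 613.5 with sh4. The transduced mark of 6.00 lies below the medians of its arrays, so a value above it does not by itself show a transcript.

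A gene was tested where at least 1 array of the comparison reached log2 5. For EMT against PC3-Epi 38 of the 52 guidance genes passed, of which 33 passed in both groups, EPHA1 through PC3-Epi alone, and EPHA5, EPHA8, SEMA3G and SEMA5B through EMT alone. The 14 below it were the receptors EPHA3, EPHA6, EPHA7, EPHA10 and EPHB1, the ligand EFNA2, the semaphorins SEMA3B, SEMA3D, SEMA3E, SEMA6A and SEMA6D, and the plexins PLXNA4, PLXNB3 and PLXNC1. Their values ran from 2.21 to 4.69 on the 4 untransduced arrays, and 13 of them never exceeded the bacterial controls there. On the 6 arrays that PC3-EMT1 and PC3-EMT14 have together, 50 guidance genes passed and EPHA3 and SEMA3E did not. The filter lies below the transduced background mark of 6.00. Of the genes that passed, EFNA2, EPHA6, EPHA7, EPHB1, SEMA3B, SEMA3D and SEMA3G never exceeded that mark on a transduced array.

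The first comparison asked which guidance genes differ between the mesenchymal lines and PC3-Epi. EPHA5, EPHA4, EPHB6 and EPHA2, receptors, and SEMA3F, SEMA4B, SEMA4F, SEMA7A and PLXNA1 were higher in EMT. The receptor EPHA1, the ligands EFNB2 and EFNB3, and SEMA3A, SEMA3C and SEMA4A were lower. By limma at an adjusted p under 0.05, 9 of 38 were higher, or 23.7%, against 13.9% of all 11921 genes tested. The 6 that were lower made up 15.8%, against 15.4% of all genes. A 2-fold difference in the same direction in all 3 lines was met upward by EPHA4 and EPHA5, 5.26% of the guidance genes against 2.95% of all genes. It was met downward by EPHA1, EFNB2, EFNB3, SEMA3A and SEMA3C, 13.2% against 4.90% of all genes. EPHA1 and EPHA5 entered the test only through the group in which they were high, so these shares are descriptions. Over all 52 genes, tested or not, the median difference was 0.11, and over all 19775 genes it was 0.10.

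**Figure D1:**
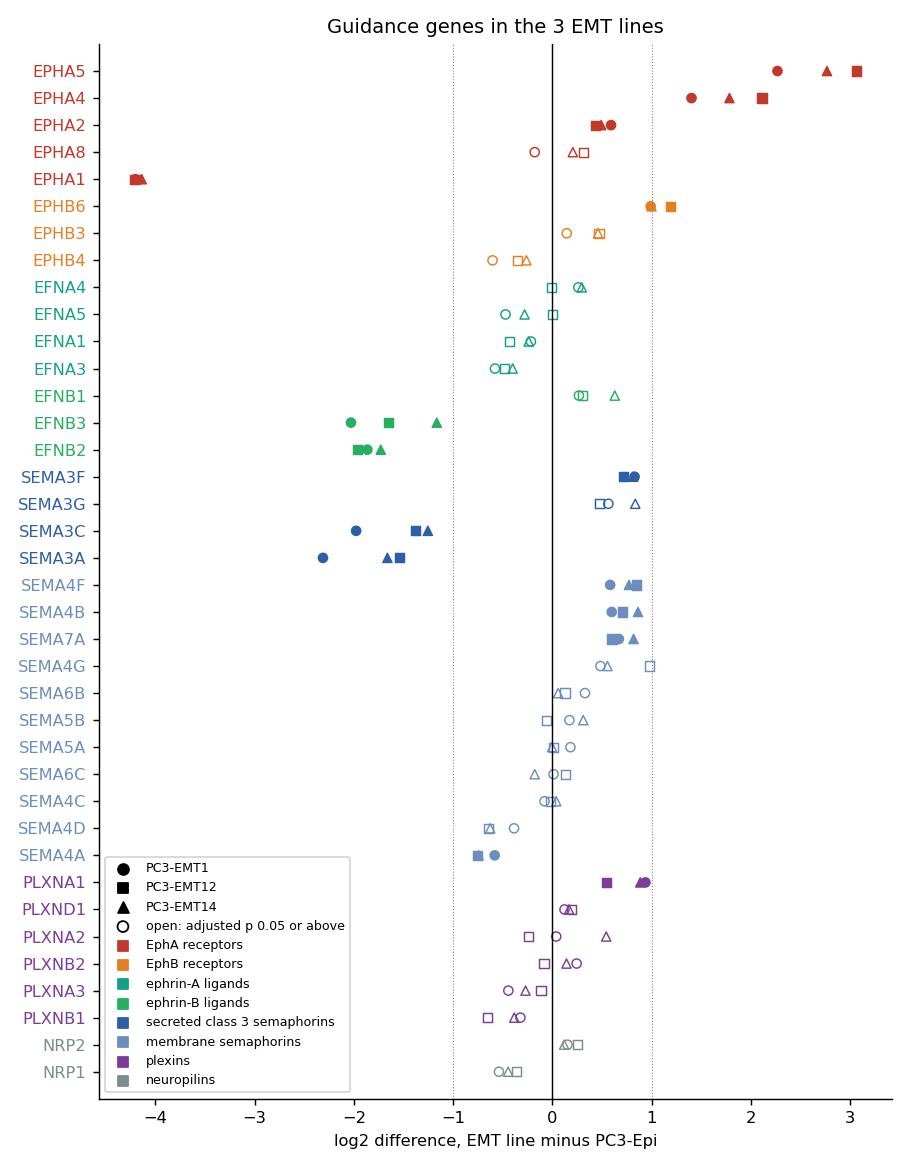
Log2 difference of each EMT line from PC3-Epi (x axis) for the 38 guidance genes tested (rows, coloured by family), with 1 symbol shape per line. Filled symbols mark genes with an adjusted p under 0.05 by limma and dotted lines a 2-fold difference; EPHA1 lies near -4.2 in all 3 lines, and EPHA4 and EPHA5 lie beyond 2-fold above PC3-Epi in all 3.

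The largest difference of the group was that of EPHA1, a receptor of ephrin-A ligands known in epithelia. Its level was 7.99 in PC3-Epi and 3.79, 3.79 and 3.85 in the EMT lines. All 3 mesenchymal lines lay below the background mark. EPHA1 fell by 4.18 ± 0.14 (SE, adjusted p = 0.000133), 18.2-fold, although the size is set against background and PC3-Epi stood 3.43 above the highest bacterial control. Of its other probe sets, 1 read 5.34 in PC3-Epi and 2.34 to 2.56 in EMT, whereas the remaining one was flat and dim at 3.81 and 3.85 to 4.01.

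EPHA4, a receptor that binds both ephrin classes, rose. It stood at 5.03 in PC3-Epi and at 6.43, 7.14 and 6.81 in the EMT lines, a rise of 1.77 ± 0.27 (adjusted p = 0.00946), or 3.40-fold. Every EMT line lay more than 1 log2 unit above PC3-Epi. The PC3-Epi level was close to the background mark of 4.56, so the size is set near background. Of its 4 other probe sets, 3 were also higher in every line, the smallest difference being 0.73, and the dimmest one was not, with differences from -0.28 to 0.20. Those 3 read 4.71, 4.58 and 4.35 in PC3-Epi.

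EPHA5, an ephrin-A receptor best known from the nervous system, stood at 2.52 in PC3-Epi and at 4.79, 5.59 and 5.29 in EMT. It rose by 2.70 ± 0.30 (adjusted p = 0.00376), 6.50-fold, from a level below background, and the EMT mean was only 0.66 above the highest bacterial control. Its other probe sets were dim. They read 2.60 against 3.30 to 3.51, and 2.95 against 3.08 to 3.27.

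EPHB6, a receptor without kinase activity, stood at 6.70 in PC3-Epi and at 7.69, 7.89 and 7.70 in EMT, a rise of 1.06 ± 0.15 (adjusted p = 0.00791). EPHA2, an ephrin-A receptor abundant in many carcinoma cells, stood at 10.91 and at 11.50, 11.35 and 11.41. Its rise of 0.51 ± 0.14 (adjusted p = 0.0471) was small and was lost without PC3-EMT1 or without PC3-EMT14, without the filter, and with quantile normalization or cyclic loess. Of the receptors not called, EPHA8 differed by 0.11 ± 0.22, EPHB3 by 0.36 ± 0.18 and EPHB4, the partner of ephrin-B2, by -0.40 ± 0.18 (adjusted p = 0.137).

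Of 3 ephrin-B ligands, which span the membrane, EFNB2 and EFNB3 fell. EFNB2 stood at 10.32 in PC3-Epi and at 8.45, 8.35 and 8.59 in EMT. It fell by 1.85 ± 0.16 (adjusted p = 0.00155), 3.61-fold, and its second probe set read 8.78 against 6.98 to 7.29. EFNB3 stood at 8.66 and at 6.63, 7.01 and 7.50. It fell by 1.61 ± 0.32 (adjusted p = 0.0183), with the smallest difference in PC3-EMT14, while its second, dim probe set was flat at 4.53 against 4.44 to 4.46. EFNB1 differed by 0.40 ± 0.19 (adjusted p = 0.158). None of the 4 ephrin-A ligands tested, which are tethered by a lipid anchor, passed. On the probe sets used they ranged from -0.49 ± 0.15 for EFNA3 (adjusted p = 0.0552) to 0.18 ± 0.18 for EFNA4. EFNA5 differed by -0.25 ± 0.21, but its probe sets were mixed. Another EFNA5 probe set of like brightness in PC3-Epi, at 6.96 against 7.01, differed by -1.08 to -0.75. A dimmer EFNA5 probe set, at 6.02, differed by -0.68 to -0.42, and the dimmest, at 4.17, by 0.08 to 0.25. These other EFNA5 probe sets were not tested singly.

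The 250 bases before the transcription start are shown for EPHA1 and EFNB2, the receptor and the ligand with the largest falls, from RefSeq on GRCh38.p14, 5′ to 3′ on the strand of the gene. Capitals mark the E-box CACCTG or its reverse complement CAGGTG, a motif that ZEB1 is known to bind, searched on both strands.
EPHA1 (chr7:143408857-143409106, minus strand): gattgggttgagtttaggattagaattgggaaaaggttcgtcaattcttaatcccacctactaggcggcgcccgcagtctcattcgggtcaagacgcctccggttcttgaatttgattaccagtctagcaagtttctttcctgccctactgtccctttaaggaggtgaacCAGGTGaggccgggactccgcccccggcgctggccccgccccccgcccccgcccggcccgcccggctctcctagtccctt
EFNB2 (chr13:106535663-106535912, minus strand): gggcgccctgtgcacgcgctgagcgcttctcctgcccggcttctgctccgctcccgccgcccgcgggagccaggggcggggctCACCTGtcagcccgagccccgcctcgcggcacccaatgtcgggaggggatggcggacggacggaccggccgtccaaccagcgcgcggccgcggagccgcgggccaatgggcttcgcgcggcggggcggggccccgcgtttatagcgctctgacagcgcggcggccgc
The motif lies 75 bases before the start in EPHA1 and 162 in EFNB2. Of the 46 guidance genes with a promoter in the table, 10 held it before at least 1 start, or 21.7%, against 20.6% of 27305 genes. Of the 6 guidance genes that fell, EFNB3 and SEMA3A were not matched in the table, and the motif was found in 3 of the other 4 (EPHA1, EFNB2 and SEMA4A, the last at 1 of 4 starts) and in 2 of 9 that rose (SEMA3F and SEMA4F). Over all genes tested the motif was held by 23.9% of those lower in EMT, 20.6% of those higher and 20.4% of those not called. The window before neither start of EPHA4 held it. A match is a description of these letters and not of binding.

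The secreted semaphorins went both ways. SEMA3A, a repellent ligand that signals through NRP1 and A-type plexins, stood at 8.08 in PC3-Epi and at 5.77, 6.54 and 6.42 in EMT. It fell by 1.84 ± 0.31 (adjusted p = 0.0120), and both other probe sets were lower in every line, from 4.75 and 4.76 to between 3.03 and 3.35. SEMA3C stood at 8.55 and at 6.57, 7.18 and 7.30. It fell by 1.54 ± 0.29 (adjusted p = 0.0164), with 6.43 against 5.33 to 5.75 on its second probe set.

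SEMA3F, a ligand of NRP2, stood at 9.13 and at 9.96, 9.85 and 9.95, a rise of 0.79 ± 0.14 (adjusted p = 0.0138), and its other probe sets were also higher in every line. SEMA3G differed by 0.62 ± 0.19 (adjusted p = 0.0517). PC3-EMT1 had the lowest level of SEMA3A and of SEMA3C, and the PC3-Epi array lay outside the range of the 3 lines for each of these genes.

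Of 11 membrane semaphorins tested, SEMA4F rose by 0.73 ± 0.16 (adjusted p = 0.0247), SEMA4B by 0.72 ± 0.16 (adjusted p = 0.0252) and SEMA7A, the member with a lipid anchor, by 0.70 ± 0.15 (adjusted p = 0.0245). SEMA4B stood at 9.36 in PC3-Epi and at 9.96, 10.07 and 10.22 in EMT. SEMA7A stood at 7.52 and at 8.19, 8.12 and 8.34, and SEMA4F at 7.37 and at 7.96, 8.22 and 8.15. All were under 2-fold. A second SEMA4F probe set was also higher in every line, by 0.81 to 0.93, whereas its dimmest differed by 0.42, -0.09 and 0.12. SEMA4A stood at 6.12 in PC3-Epi and at 5.54, 5.37 and 5.37 in EMT, a fall of 0.69 ± 0.15 (adjusted p = 0.0230) that its second, dim probe set did not share (4.22 against 4.07 to 4.26) and that was lost with the mean of both. The 7 others ranged from -0.55 ± 0.17 for SEMA4D, the ligand of plexin-B1 (adjusted p = 0.0536), to 0.67 ± 0.23 for SEMA4G (adjusted p = 0.0710).

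Among the receptors of semaphorins, PLXNA1 stood at 9.35 in PC3-Epi and at 10.28, 9.89 and 10.23 in EMT, a rise of 0.79 ± 0.20 (adjusted p = 0.0340). The 5 other plexins tested ranged from -0.45 ± 0.18 for PLXNB1 (adjusted p = 0.106) to 0.16 ± 0.14 for PLXND1. NRP1 stood at 10.86 and at 10.32, 10.49 and 10.41, a difference of -0.45 ± 0.15 (adjusted p = 0.0681), and its second brightest probe set went the other way, from 9.03 to between 9.04 and 9.35. NRP2 differed by 0.18 ± 0.14, and its 11 probe sets were mixed. The one brightest in PC3-Epi, at 6.01, differed by -1.20 to -0.70, and another, at 4.52, by 0.15 to 0.42. The calls of EPHA2, PLXNA1, SEMA3F, SEMA4A, SEMA4B, SEMA4F and SEMA7A, all under 2-fold, were lost without PC3-EMT14, which left 8 of the 15. The spread of PC3-Epi, a single array, was taken from the EMT lines.

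The second comparison asked what the ZEB1 shRNA changed within each mesenchymal line. EPHA4 and EPHA5, the guidance genes that were higher by 2-fold in all 3 EMT lines, were the ones lower with sh4, 2 of 50 or 4.0%, against 0.486% of all 16662 genes tested. The number higher by limma was 0 of 50, against 0.690% of all genes, and 11 of the 50 guidance genes, or 22.0%, had an unadjusted p under 0.05 in either direction, against 18.6% of all genes. A 2-fold difference in both lines was met by 0 guidance genes and by 0.408% of all genes. The median difference was -0.01 over the 52 guidance genes and 0.03 over all genes.

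EPHA4 stood at 7.97 with Scr and 6.93 with sh4 in PC3-EMT1, and at 8.37 and 7.50 in PC3-EMT14. It fell by 0.95 ± 0.12 (adjusted p = 0.0219), 1.94-fold. Both sh4 arrays lay below both Scr arrays. A second EPHA4 probe set read 7.21 with Scr and 5.76 with sh4 in PC3-EMT1, and 8.40 and 6.53 in PC3-EMT14. In the same order, another read 6.50, 5.90, 7.78 and 5.67, and a further one 7.46, 6.82, 7.90 and 6.98. The 4 brightest probe sets were thus lower with sh4 in both lines.

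EPHA5 stood at 6.86 with Scr and 5.57 with sh4 in PC3-EMT1, and at 7.38 and 6.65 in PC3-EMT14. It fell by 1.02 ± 0.16 (adjusted p = 0.0422), 2.02-fold, and the sh4 array of PC3-EMT1 lay below the background mark of 6.00. Both sh4 arrays again lay below both Scr arrays. The other probe sets of EPHA5 lay below the bacterial mark on every transduced array and differed by -0.13 to 0.31. The EPHA4 and EPHA5 calls rest on a spread estimated from the 6 arrays of both sets with the line as a block. From the 4 transduced arrays alone, or without the untransduced array of either line, 0 genes of all those tested passed with the block. Without the sh4 array of PC3-EMT1 both calls were also lost, and without that of PC3-EMT14 the call of EPHA4.

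**Figure D2:**
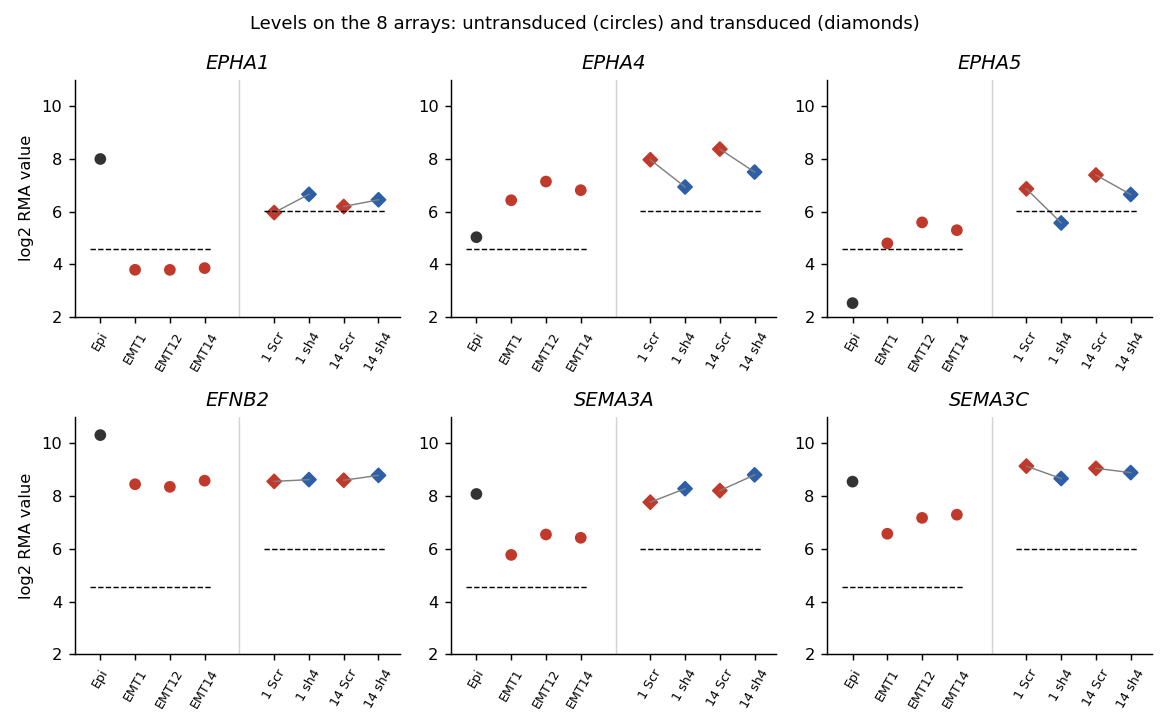
Log2 RMA values (y axis) of 6 guidance genes on the 8 arrays (x axis), with PC3-Epi in black, EMT and Scr in red and sh4 in blue; lines join Scr and sh4 of 1 cell line, and dashed lines mark the highest bacterial control of each set of arrays. The sets are on different scales and are compared only within themselves; EPHA4 and EPHA5 are higher in EMT than in PC3-Epi and lower with sh4 than with Scr in both lines.

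The genes that were lower in EMT did not pass in the other direction with sh4. SEMA3A stood at 7.77 with Scr and 8.28 with sh4 in PC3-EMT1 and at 8.21 and 8.81 in PC3-EMT14, a difference of 0.56 ± 0.12 (adjusted p = 0.0778). Both other SEMA3A probe sets were also higher with sh4 in each line. EPHA1 stood at 5.96 and 6.65 in PC3-EMT1 and at 6.19 and 6.45 in PC3-EMT14, close to background. The difference was 0.47 ± 0.14 (adjusted p = 0.141). An EPHA1 probe set of like brightness on these arrays, at 6.16 to 6.48, differed by -0.32 and -0.22. The dimmer one, at 3.81 to 4.39, differed by 0.45 and 0.56.

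EFNB2 stood at 8.56 and 8.63 in PC3-EMT1 and at 8.60 and 8.79 in PC3-EMT14, a difference of 0.13 ± 0.11 (adjusted p = 0.595). Its difference of -1.85 in EMT came from the set of arrays on the other scale, so the sizes are not weighed against each other. SEMA3C differed by -0.32 ± 0.19 (adjusted p = 0.405) and EFNB3 by 0.32 in PC3-EMT1 and -0.28 in PC3-EMT14.

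Of the other members that did not pass, EFNA4 and NRP1 came closest to the threshold. EFNA4, an ephrin-A ligand, stood at 8.96 with Scr and 8.34 with sh4 in PC3-EMT1 and at 9.07 and 8.55 in PC3-EMT14 (-0.57 ± 0.12, adjusted p = 0.0717). NRP1 stood at 11.82 and 11.25 in PC3-EMT1 and at 11.78 and 11.26 in PC3-EMT14 (-0.54 ± 0.11, adjusted p = 0.0763). For both genes the sh4 arrays lay below the Scr arrays. SEMA7A differed by 0.57 ± 0.17 (adjusted p = 0.153), with 0.92 in PC3-EMT1 and 0.21 in PC3-EMT14, and PLXNA2 by -0.63 ± 0.20 (adjusted p = 0.158), with -0.23 and -1.02.

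By family, differences were read on the probe sets used. The largest remaining ones with sh4 were 0.50 ± 0.18 for EPHA8 and -0.47 ± 0.15 for EPHA7 among EphA receptors. Among EphB receptors it was 0.30 ± 0.12 for EPHB4. The 3 ephrin-B ligands lay between -0.17 and 0.13, and the 13 membrane semaphorins between -0.11 and the value of SEMA7A. SEMA6D differed by 0.03 in PC3-EMT1 and 0.10 in PC3-EMT14 on the probe set used. Another SEMA6D probe set, not tested singly, differed by -0.50 and -1.40, from 5.95 to 5.45 and from 6.77 to 5.37. The 9 plexins lay between the value of PLXNA2 and 0.23 for PLXNA1. NRP2 differed by -0.12 ± 0.14.

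**Figure D3:**
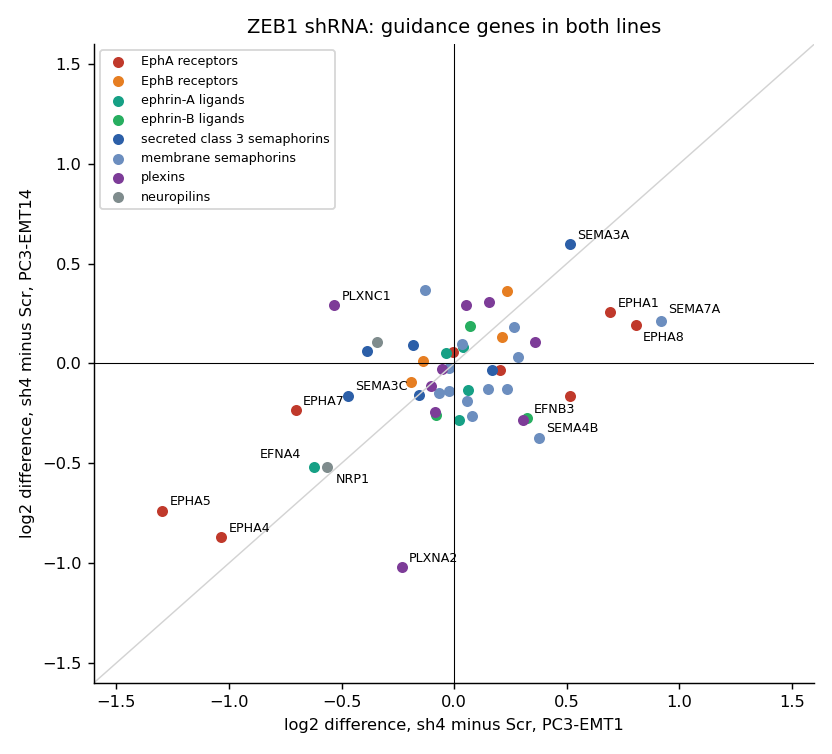
Log2 difference of sh4 from Scr in PC3-EMT1 (x axis) and in PC3-EMT14 (y axis) for the 50 guidance genes tested, coloured by family, with the line of equal differences in grey. EPHA4 lies at -1.03 and -0.87 and EPHA5 at -1.30 and -0.74, and SEMA3A is about equally higher in both, at 0.51 and 0.60.

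**Figure D4:**
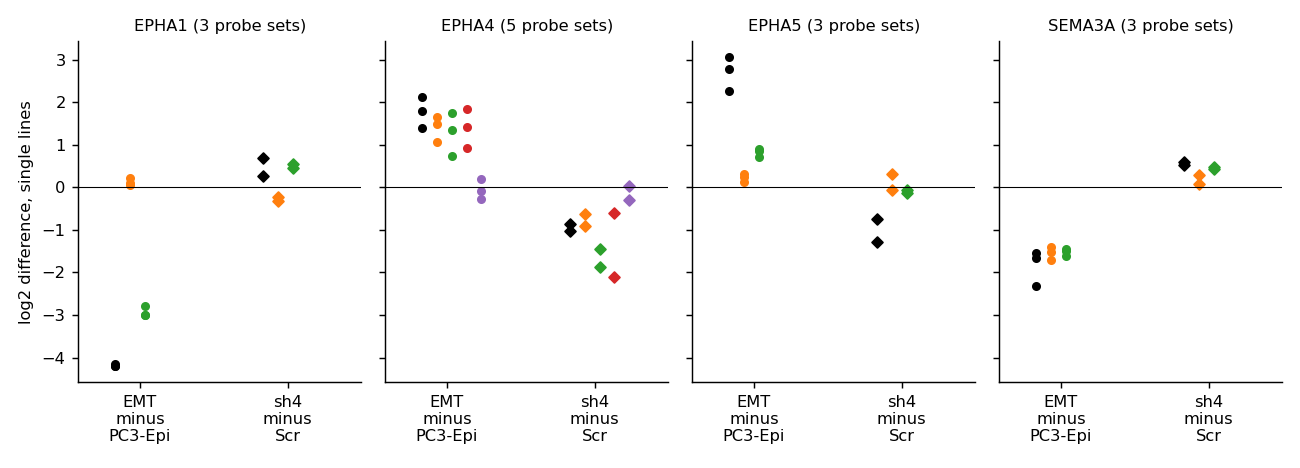
Log2 differences of single lines (y axis) for every probe set of EPHA1, EPHA4, EPHA5 and SEMA3A, with circles for the 3 EMT lines against PC3-Epi and diamonds for sh4 against Scr in the 2 transduced lines; black marks the probe set used and each other colour another probe set. Of the 5 EPHA4 probe sets, 4 lie above 0 in EMT and below 0 with sh4. For EPHA5 the large differences are those of the probe set used. Another, dim, differs by 0.70 to 0.91 in EMT and by -0.05 and -0.13 with sh4. The remaining EPHA5 probe set differs by 0.13 to 0.32 and by -0.07 and 0.31.

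Set side by side, the 2 comparisons share no array in their differences, although the untransduced EMT1 and EMT14 arrays also entered the estimate of the spread with sh4. EPHA4 and EPHA5 were called in both, in opposite directions, 5.26% of the 38 guidance genes tested against 1.03% of the 11908 genes tested in both. Because EPHA5 entered the first test only through the EMT arrays, where it is high, this share is a description too. Both receptors were above PC3-Epi in each of 3 EMT lines and below Scr in each of 2 sh4 pairs. A 2-fold difference in opposite directions in all 5 pairs was met by 46 genes in all and by 0 guidance genes.

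**Figure D5:**
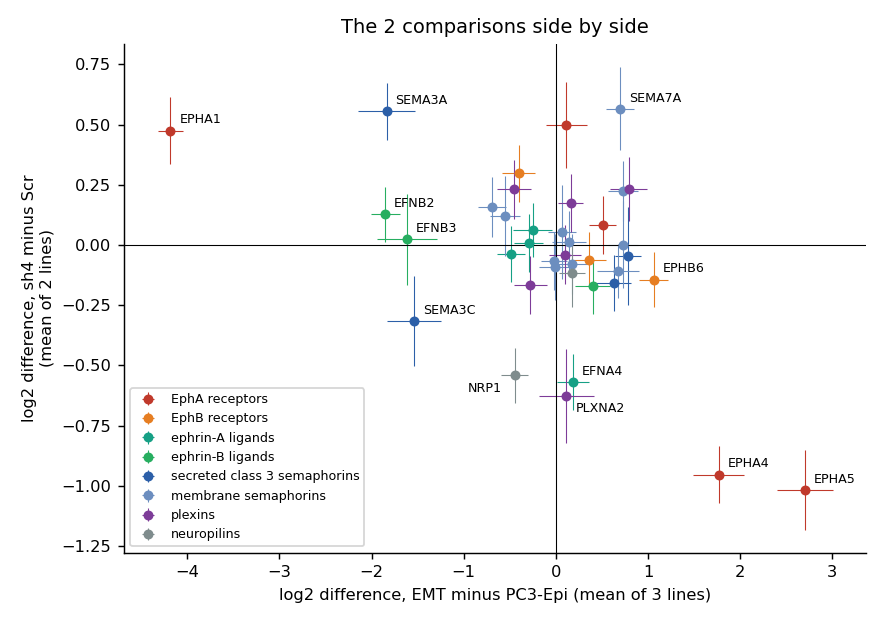
Mean log2 difference of the 3 EMT lines from PC3-Epi (x axis) and of sh4 from Scr over 2 lines (y axis) for the 38 guidance genes tested in both, with bars of 1 SE from limma on each axis. EPHA4 and EPHA5 lie at the lower right, higher in EMT and lower with sh4; EFNB2 and EFNB3 lie far left near 0 with sh4.

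The mesenchymal lines PC3-EMT14 and PC3-EMT1 were compared in 3 pairs, untransduced, Scr and sh4. SEMA3A was higher in PC3-EMT14, by 0.54 ± 0.10 (adjusted p = 0.0451), 1 of 50 or 2.0%, against 1.52% of all 16662 genes. The number lower was 0, against 0.300%, and 10 of the 50 guidance genes had an unadjusted p under 0.05 in either direction, against 16.3% of all genes. The SEMA3A values were 5.77 and 6.42 untransduced, 7.77 and 8.21 with Scr and 8.28 and 8.81 with sh4. Each pair had the higher value in PC3-EMT14, but the call was lost when any of the 6 arrays was left out. EPHA5 (0.70 ± 0.13, adjusted p = 0.0521), EPHA4 (0.45 ± 0.10, adjusted p = 0.0687), PLXNA2 (0.72 ± 0.16, adjusted p = 0.0734) and EPHB4 (0.44 ± 0.10, adjusted p = 0.0734) did not pass. The lowest difference was -0.52 ± 0.17 for SEMA3F (adjusted p = 0.174), which stood at 10.93 and 10.02 with Scr but at 9.96 and 9.95 untransduced.

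Partner genes were taken from 3 lists, whose counts are read beside the 13.9% of all genes higher and 15.4% lower in EMT, and the 0.690% higher and 0.486% lower with sh4. Of 7 VEGF ligands and receptors, which share neuropilins with the semaphorins, 6 were tested in EMT, of which 2 rose (33.3%) and 1 fell (16.7%). KDR, the main VEGF receptor of endothelium, stood at 3.98 in PC3-Epi and at 7.66, 8.62 and 7.81 in EMT, a rise of 4.05 ± 0.38 (adjusted p = 0.00211). PC3-Epi lay below the background mark, so the size is set against background, and the EMT mean stood 3.47 above the highest bacterial control. KDR entered the test only through the EMT arrays, where it is high, so the EMT shares of this list are descriptions. With sh4 it fell by 1.08 ± 0.17 (adjusted p = 0.0373), with 9.43 for Scr and 8.68 for sh4 in PC3-EMT1 and 9.93 and 8.50 in PC3-EMT14, the 1 call among the 7 tested. VEGFB rose by 0.70 ± 0.19 in EMT and VEGFA fell by 1.02 ± 0.27, and FLT1 differed by -0.22 ± 0.17. With sh4, VEGFA differed by 0.24 ± 0.11, FLT1 by 0.23 ± 0.13 and FLT4 by -0.20 ± 0.17.

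Of 23 genes of the Slit, netrin and RGM systems, which guide axons beside the ephrins and semaphorins, 11 were tested in EMT, of which 4 rose (36.4%) and 2 fell (18.2%). NTNG1, a membrane-anchored netrin, rose by 2.89 ± 0.36 (adjusted p = 0.00513) and ROBO4, a Robo receptor of endothelium, by 2.58 ± 0.20 (adjusted p = 0.00129). At 4.94 in PC3-Epi, NTNG1 entered the test only through the EMT arrays, so these shares are descriptions too. RGMB and NTN4 rose by 0.68 ± 0.14 and 0.63 ± 0.17. FLRT3, an adhesion protein that binds UNC5 receptors, fell by 1.74 ± 0.33, and ROBO1, a Slit receptor, by 1.08 ± 0.18. With sh4, 0 of 20 passed, the largest difference being -0.75 ± 0.16 for NTNG1 (adjusted p = 0.0777), before 0.50 ± 0.12 for RGMB and -0.46 for both NTN4 and FLRT3. The median over the 23 genes was 0.24 in EMT and 0.08 with sh4.

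Of 48 genes of Eph and plexin signalling and processing, 39 were tested in EMT, of which 6 rose (15.4%) and 7 fell (17.9%), near the shares of all genes, with a median of 0.00 over the 48. DPYSL3, a collapsin response mediator, rose by 2.48 ± 0.17 (adjusted p = 0.000772) and its relative DPYSL4 by 1.18 ± 0.26. ADAM10, a protease that sheds ephrins, fell by 1.19 ± 0.16, and the adaptor GRB10 by 1.12 ± 0.22. The adaptor GRB7 fell in EMT by 0.96 ± 0.20 (adjusted p = 0.0206) and rose with sh4 by 0.72 ± 0.11 (adjusted p = 0.0411), with 6.50 for Scr and 7.24 for sh4 in PC3-EMT1 and 6.48 and 7.17 in PC3-EMT14. It was the 1 call of this list among 46 tested with sh4. DPYSL4 (-0.75 ± 0.26), the GTPases RRAS (-0.38 ± 0.12) and CDC42 (-0.36 ± 0.18) followed without passing.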

How the data were processed

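Each sample was hybridised to 1 Affymetrix array of 54675 probe sets. The authors made log2 values by RMA with the affy package, per the submitters' processing notes, and the deposited log2 values were used unchanged. RMA shrinks differences of dim probe sets, and the medians of the untransduced and transduced arrays differ, so levels were not compared between them. A genome build for the probe sets was not given in the sources used here. Of the probe sets, 41091 carried 1 symbol and gave 19775 genes, and where a gene had several, the brightest by its mean over the 8 arrays stood for it, as for 39 of the 52 guidance genes.

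Differences were fitted with limma 3.58.1 in R 4.3.3 (lmFit, eBayes, two-sided, Benjamini-Hochberg adjustment over all genes with at least 1 array at log2 5, threshold 0.05). The 4 untransduced arrays were fitted by group, and the 6 arrays of both transduced lines by group plus cell line, the block. Each fit leaves 2 residual degrees of freedom. Replicate numbers in the labels name cell lines, and deviations of arrays of 1 line from their group means correlated at 0.36 to 0.48 over 16662 genes, so the numbers pair the arrays.

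Every guidance gene that passed a test or the 2-fold rule is named, with the largest difference of each family and the 4 largest of each partner list. The guidance genes and all lists were chosen with earlier results of these data known. The promoter motif search was a description added later, and a few listed genes are not reported here. Alternatives comprised other filters, probe set choices, scalings, 32 added on the linear scale, eBayes settings, fold limits, fewer arrays, no block, and leaving out each array.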

Additional observations from a re-analysis of the deposited data

Results flagged for a closer look

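With sh4, 4 guidance genes differed from Scr in opposite directions in the 2 lines, each by 0.25 or more on the log2 scale, as did 334 of all 16662 genes tested. EFNB3, a transmembrane ephrin, differed by 0.32 in PC3-EMT1 and by -0.28 in PC3-EMT14. SEMA4B differed by 0.38 and -0.37 in the same order. The plexins PLXNA4, at 0.31 and -0.28, and PLXNC1, at -0.53 and 0.29, lay near or below the background mark on some of these arrays. With 1 pair of arrays a line, the difference between the lines was not tested.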

How the results depend on the processing

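For the guidance genes called one by one, 265 alternatives were run. The direction never reversed, the call was kept in 227 and lost in 38. In EMT against PC3-Epi, EPHA1, EPHA4, EPHA5, EPHB6, EFNB2, EFNB3, SEMA3A and SEMA3C kept their calls under every alternative in which they were tested. Of all genes, 1841 passed without PC3-EMT14, against 3496 with it, and 8 to 18 guidance genes passed as each EMT line was left out, against 15 with all. Without PC3-EMT12, NRP1, SEMA3G and SEMA4G passed in addition, and without PC3-EMT1, SEMA4D passed and EPHA2 did not. With sh4, the 2 guidance genes became 1 with the mean of probe sets or with 32 added, where EPHA5 was lost, and 0 to 3 as each array was left out. These calls needed both the replicate block and the untransduced arrays: with no replicate block 0 passed, as with the 4 transduced arrays alone, with or without the block. Over all genes, 196 passed with the 6 arrays and the block, 12 with no replicate block, 0 with the 4 arrays and the block, 1 without it, and 0 to 630 as each array was left out. The count called in opposite directions in both comparisons, 2 in the main analysis, became 1 at a filter of log2 7, with the mean of probe sets or with 32 added, 0 with no replicate block or the 4 transduced arrays alone, and 0 to 2 as each array was left out. Between PC3-EMT14 and PC3-EMT1, the 1 guidance gene became 2 with no filter, a filter at the bacterial controls or a trend, 3 at log2 7, and 0 with the mean of probe sets, quantile normalization, cyclic loess, 32 added or the 4 transduced arrays alone, and 0 to 1 as each array was left out, then EPHA5 or EFNB3 in place of SEMA3A. All genes went from 304 to 117 with 32 added, 139 with quantile normalization, 191 with the mean of probe sets and 0 with the 4 arrays. Under the fold rule, 7 guidance genes passed at 2-fold in EMT, 11 at 1.5-fold and 3 at 3-fold, and with sh4 0 passed at 2-fold and 2 at 1.5-fold. The cause was not tested. Closeness to background limits EPHA1, EPHA5, KDR, CDH1, the genes below the filter and, for its PC3-Epi level, EPHA4. With sh4 it also limits EPHA7, EPHA8, EFNA2, EPHA6, EPHB1, SEMA3B, SEMA3D, SEMA3G, SEMA6A, PLXNA4 and PLXNC1.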
